A study of Mus musculus with 8 samples.

Results

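The genes described here are 10 components of insulin, AKT, mTOR and FOXO signalling, taken by symbol: the receptor adaptors Irs1 and Irs2, the kinases Akt1 and Akt2, the kinase Mtor with its substrate gene Eif4ebp1, the transcription factors Foxo1, Foxo3 and Foxo4, and the stress gene Gadd45a. Each matched 1 of the 53647 Ensembl mouse gene identifiers in the count files, and all 10 were among the 15603 genes with enough counts to test. RNA came from wild-type mouse primary myotubes, which are long cells with many nuclei made by fusion of muscle precursors in culture. The precursors were taken from the limbs of pups 2 to 3 days old and were made to differentiate in 5% horse serum. The 4 groups were untreated controls and myotubes given interleukin 6 (IL6), leukaemia inhibitory factor (LIF) or oncostatin M (OSM), each at 250 ng/ml for 48 h. All cells were harvested 72 h after differentiation, and each group had 2 libraries (8 in all). How many pups or isolations lie behind the cultures is not said, and neither is whether the 2 libraries of a group came from separate cultures, so p-values measure only the spread between these libraries, which may be technical.

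IL6, LIF and OSM are related cytokines that signal through receptors sharing the gp130 subunit. In the insulin pathway, activated receptors for insulin and insulin-like growth factors recruit the IRS adaptors, which bring in phosphoinositide 3-kinase (PI3K) and so activate AKT. AKT in turn raises the activity of the mTOR complex that drives translation, partly by releasing the cap-binding factor eIF4E from 4E-BP1, the product of Eif4ebp1. AKT also phosphorylates FOXO proteins and keeps them out of the nucleus. When AKT activity is low, nuclear FOXO proteins switch on genes for protein breakdown in muscle, among them the ubiquitin ligases atrogin-1 (Fbxo32) and MuRF1 (Trim63). Gadd45a encodes a small stress-induced nuclear protein that is known as a target of FOXO factors, p53 and ATF4, the transcription factor of the amino acid and integrated stress response. Much of this pathway is controlled by phosphorylation, which RNA counts do not measure.

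Library totals ran from 29482077 to 30025471 counts, and the members had between 642 counts (the lowest Irs2 library) and 13304 counts (the highest Akt2 library). Levels are given as CPM, read counts relative to library size after TMM (trimmed mean of M values) scaling. The labelled cell type was checked against marker genes. All 14 myotube markers were detected in every group, with summed levels of 28326 to 29596 CPM in control and 24980 to 25344 CPM with OSM. Of 8 fibroblast markers, Col3a1 (1332 to 2064 CPM over all libraries) made up most of the summed level. That level ran from 1652 to 1717 CPM in control and from 2059 to 2167 CPM with OSM. Col1a1, the next largest, did not follow the sum. It ran from 72.1 CPM in OSM replicate 1 to 309 CPM in control replicate 1. Of 5 fibroblast markers tested, 2 were called higher and 0 lower with OSM against control. In all, 5 of the 8 markers were detected. Of the others, Lum and Tcf21 had no count in any library (an observed 0 allows up to 3 counts), and Thy1 had at most 1. Macrophage markers summed to 8.56 to 9.92 CPM in control and 15.0 to 16.2 CPM with OSM. In any library Ptprc had at most 3 counts, Adgre1 at most 1, Csf1r at most 7 and Lyz2 at most 5. Mrc1 had 168 to 348 counts per library, Cd68 54 to 125 and Itgam 14 to 47. Of the 3 macrophage markers tested, 2 were called higher with OSM against control. Markers of undifferentiated myoblasts summed to 413 to 415 CPM in control and 637 to 644 CPM with OSM. Most of that sum was Sdc4, at 313 to 531 CPM over all libraries. The 10 proliferation markers summed to 909.8 to 1054.8 CPM in control, 865 to 928 with IL6, 681 to 731 with LIF and 303.7 to 349.5 with OSM, and all 10 were called lower with OSM against control. In bulk samples fewer cells of a type and less RNA per cell cannot be told apart.

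Promoter sequences of the members were read from a RefSeq table on mouse build GRCm38.p6, an older build than that of the count files. The table held 12 promoters for 8 of the 10 members. The 250 bases before the annotated start were searched on both strands for the FOXO core GTAAACA, the STAT core TTCNNNGAA and the ATF4-type element TGATGNAA. CAAAACAA, part of a known insulin response element, and the octamer ATGCAAAT were added after the sequences had been seen. Among all 32851 promoters listed, GTAAACA was in 3.17%, TTCNNNGAA in 7.02%, TGATGNAA in 3.45%, CAAAACAA in 2.21% and ATGCAAAT in 1.6%. The first pair below belongs to Gadd45a and Foxo1, the members whose RNA was called lower with OSM, and the second pair to Irs1 and Irs2, which hold the same letters at nearly the same place. Each is 5′ to 3′ on the gene's own strand, and capitals mark ATGCAAAT in Gadd45a and CAAAACAA in Irs1 and Irs2, read on either strand.
Gadd45a, chr6:67037408-67037657, minus strand: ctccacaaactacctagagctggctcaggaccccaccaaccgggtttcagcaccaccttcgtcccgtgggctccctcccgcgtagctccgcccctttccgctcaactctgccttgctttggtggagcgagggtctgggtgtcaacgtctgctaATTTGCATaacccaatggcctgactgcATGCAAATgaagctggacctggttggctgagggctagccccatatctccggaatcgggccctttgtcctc
Foxo1, chr3:52268087-52268336, plus strand: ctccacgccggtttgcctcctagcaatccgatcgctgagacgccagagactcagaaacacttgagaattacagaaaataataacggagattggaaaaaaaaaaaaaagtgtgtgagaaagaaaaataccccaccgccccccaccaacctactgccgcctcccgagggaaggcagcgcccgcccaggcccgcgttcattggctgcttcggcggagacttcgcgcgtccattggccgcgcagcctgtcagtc
Irs1, chr1:82291440-82291689, minus strand: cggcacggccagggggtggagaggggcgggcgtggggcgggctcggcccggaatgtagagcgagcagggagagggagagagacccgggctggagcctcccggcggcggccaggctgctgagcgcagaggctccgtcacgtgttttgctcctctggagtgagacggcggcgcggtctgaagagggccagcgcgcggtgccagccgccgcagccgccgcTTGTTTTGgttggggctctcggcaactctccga
Irs2, chr8:11008930-11009179, minus strand: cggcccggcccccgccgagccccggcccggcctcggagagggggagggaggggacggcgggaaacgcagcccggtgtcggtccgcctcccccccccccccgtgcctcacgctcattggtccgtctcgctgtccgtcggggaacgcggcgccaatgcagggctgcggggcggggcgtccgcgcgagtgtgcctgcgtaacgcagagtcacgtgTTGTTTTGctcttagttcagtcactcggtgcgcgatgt

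The Gadd45a promoter held 2 octamers, 97 bases before the start on the opposite strand and 70 bases before it on the gene's strand. In Irs1 the CAAAACAA letters lay 33 bases before the start, and in Irs2 38 bases before it, both on the opposite strand. The Foxo1 and Foxo3 windows held none of the 5 motifs. Among the other members, 1 of the Akt1 promoters held GTAAACA 161 bases before its start on the opposite strand, Mtor held TTCGTGGAA 228 bases before its start, and among the Akt2 promoters 1 held TTCGGGGAA at 160 bases and another TTTCATCA at 85 bases. A match says only that the letters are there. The GC content of the window was 59.2% for Gadd45a, 56% for Foxo1, 72.4% for Irs1 and 72.8% for Irs2, against a median of 52.4% over all promoters.

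The first question was whether OSM changed the RNA of the pathway's core components. With OSM against control, 2 of the 10 members were called at an adjusted p under 0.05, Gadd45a and Foxo1, both lower. Over all genes tested 21.4% were called, 10.8% higher and 10.6% lower. The members' median log2 change was −0.083, against −0.0029 over all genes, and their median absolute change was 0.11, against 0.19. No member differed by more than 0.32 on the log2 scale in this comparison. At an unadjusted p under 0.05 there were 3 members, against 32.8% of all genes. The libraries of the OSM and control groups did not overlap for 6 members, a pattern that 60.9% of all genes showed.

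**Figure D1:**
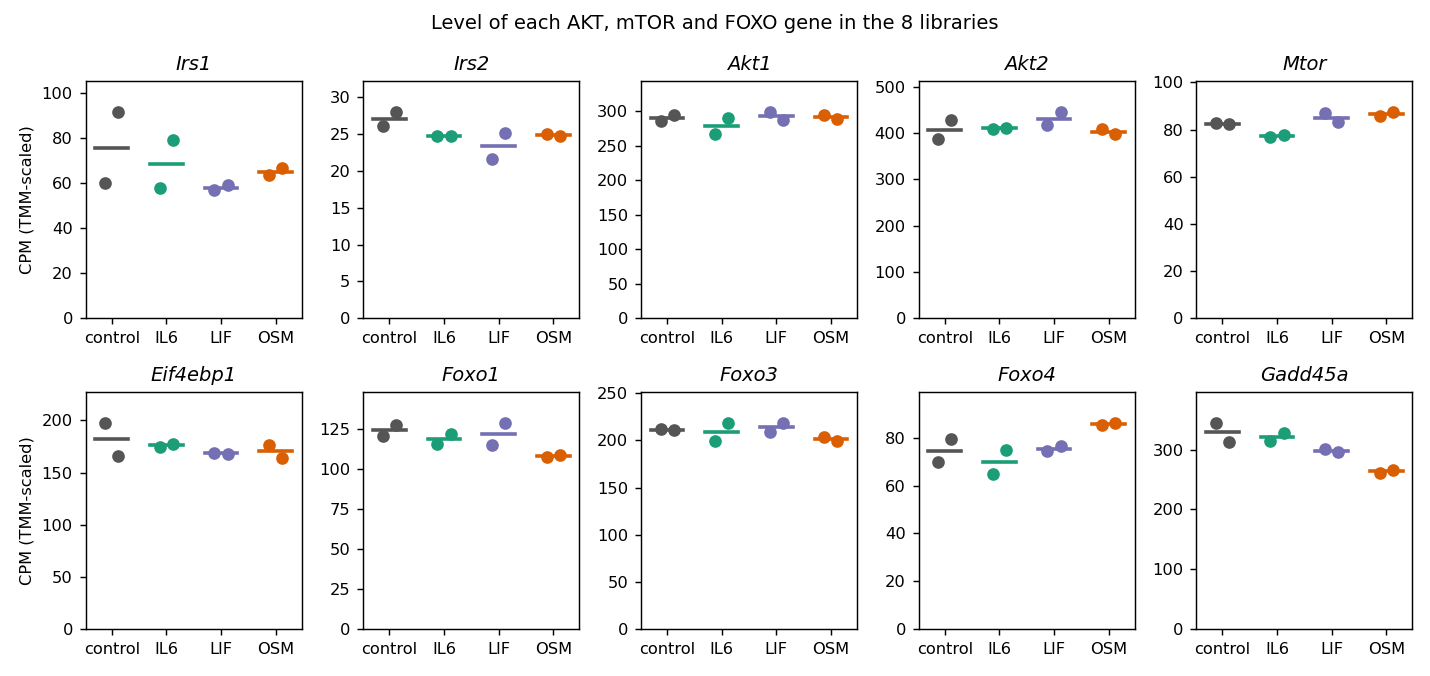
Levels of the 10 members in all 8 libraries, in CPM on axes that start at 0; points are libraries (replicate 1 left, replicate 2 right) and bars are group means. The OSM libraries of Gadd45a (260.7 and 266.6 CPM) and of Foxo1 (107.4 and 109.0 CPM) sit below the other 6, those of Foxo4 (85.4 and 86.4 CPM) above, and the 2 control libraries of Irs1 lie 1.53-fold apart.

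At the top of the pathway, Irs1 encodes the adaptor that carries the insulin signal to PI3K in muscle. Its level was 59.9 and 91.8 CPM in the control libraries, 57.8 and 79.2 CPM with IL6, 57.1 and 59.1 CPM with LIF and 63.7 and 66.8 CPM with OSM. The control libraries spanned both OSM libraries, while both LIF libraries lay below all others except 1 of IL6. Its log2 change was −0.22 with OSM (SE 0.21, adjusted p 0.531) and −0.39 with LIF (95% interval −0.88 to 0.11, adjusted p 0.375). Control replicate 1 and 2 were 1.53-fold apart, the widest pair among the members, and they set these values. Without control replicate 1 the change was −0.49 with OSM and −0.66 with LIF (adjusted p 0.0399), and without control replicate 2 it was 0.13 and −0.040. By the GENCODE M21 annotation 30.9% of the Irs1 exon bases overlap Gm9747 on the opposite strand, which had at most 1 count in any library. The strand setting of the counting is not given, so how reads of this overlap were assigned is not known.

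Irs2, the second adaptor, had the lowest level of the members. Its libraries stood at 26.1 and 28.0 CPM in control, 24.74 and 24.75 CPM with IL6, 21.6 and 25.2 CPM with LIF and 24.97 and 24.73 CPM with OSM. Both control libraries lay above the other 6, so each cytokine group was separate from control. No difference was called: the log2 change was −0.21 with LIF (unadjusted p 0.0355, adjusted p 0.202), −0.13 with IL6 (adjusted p 0.947) and −0.12 with OSM (adjusted p 0.378). The LIF value was −0.10 without LIF replicate 1 and −0.32 without LIF replicate 2, and without control replicate 2 the IL6 and OSM values were −0.074 and −0.061.

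The AKT kinases had the smallest differences of the members between OSM and control. Akt1, the ubiquitous form, stood at 286.3 and 294.2 CPM in control, 267.8 and 290.7 CPM with IL6, 299.3 and 287.3 CPM with LIF and 295.6 and 288.6 CPM with OSM. The 4 groups overlapped, and the lowest library was 1 of IL6. Its difference between OSM and control had a 95% interval of −8.10% to 10.2% (adjusted p 0.941). Akt2, the form linked to insulin-stimulated glucose uptake, was at 386.5 and 428.1 CPM in control, 409.8 and 411.9 CPM with IL6, 417.2 and 445.6 CPM with LIF and 409.1 and 397.4 CPM with OSM. Both the IL6 and the OSM libraries lay between the controls, and the interval for OSM against control was −10.1% to 9.08% (adjusted p 0.907). Akt2 shares 16% of its 50-base stretches with the pseudogene Akt2-ps, which had 15 to 31 counts per library.

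Mtor encodes the kinase at the core of both mTOR complexes. Its libraries gave 82.8 and 82.2 CPM in control, 76.7 and 77.7 CPM with IL6, 86.8 and 83.2 CPM with LIF and 85.9 and 87.4 CPM with OSM. The IL6 libraries lay below the other 6, the control pair came next, and the LIF and OSM pairs overlapped above it. None of these steps was called. The log2 change was 0.071 with OSM (95% interval −0.057 to 0.20, adjusted p 0.445) and −0.096 with IL6 (adjusted p 0.943), and OSM lay 0.17 above IL6 (unadjusted p 0.0144, adjusted p 0.0773). LIF lay 0.14 above IL6 (unadjusted p 0.0348, adjusted p 0.286).

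Eif4ebp1 encodes the translation repressor 4E-BP1, which mTOR inactivates, and is also known as an ATF4 target. Its level was 197.9 and 166.4 CPM in control, 174.9 and 177.3 CPM with IL6, 169.3 and 168.3 CPM with LIF and 176.5 and 164.3 CPM with OSM. Control replicate 1 was the highest of the 8 libraries, and the remaining 7 lay within the range from OSM replicate 2 to IL6 replicate 2. With OSM its log2 change was −0.096 (adjusted p 0.416), and with LIF it was −0.11 (adjusted p 0.475). Of the relatives, Eif4ebp2 stood at 113 ± 3.51 CPM in control and 117 ± 0.929 CPM with OSM (SD, n = 2; adjusted p 0.578). Eif4ebp3 was barely detected, at 0.321 ± 0.163 CPM in control.

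Foxo1, a FOXO factor linked to muscle atrophy programmes, was 13.1% lower with OSM. It stood at 121.0 and 128.1 CPM in control, 115.6 and 122.0 CPM with IL6, 115.5 and 129.3 CPM with LIF and 107.4 and 109.0 CPM with OSM. Both OSM libraries lay below the other 6, which overlapped among themselves. The log2 change against control was −0.20 (SE 0.068, 95% interval −0.35 to −0.057, adjusted p 0.0487), so the call stood just inside the threshold. It was lost in 9 of 14 alternative settings, with an adjusted p of 0.0544 under relative log expression (RLE) scaling, 0.0743 by DESeq2 and 0.0603 with TMM factors taken before the filter. Leaving out 1 library gave an adjusted p of 0.0554 without control replicate 1, 0.225 without control replicate 2, 0.0645 and 0.0647 without LIF replicate 1 or 2, and 0.255 and 0.19 without OSM replicate 1 or 2. On the opposite strand 7.78% of its exon bases overlap Gm20402, which had at most 1 count in any library. How reads of this overlap were assigned is not known either.

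Foxo4 ran the other way. Its libraries were at 69.8 and 79.5 CPM in control, 64.7 and 74.8 CPM with IL6, 74.4 and 76.6 CPM with LIF and 85.4 and 86.4 CPM with OSM. Both OSM libraries lay above the other 6. The log2 difference from control was 0.20 (SE 0.080, 95% interval 0.030 to 0.38), which was not called (adjusted p 0.0939), although it passed in 5 of 14 alternatives. It was 0.11 without control replicate 1 and 0.31 without control replicate 2, and the highest adjusted p with 1 library left out was 0.465. The alternatives that passed were no filter (adjusted p 0.039), a replicate block (0.0284) and leaving out control replicate 2 (0.028), IL6 replicate 1 (0.0304) or IL6 replicate 2 (0.0325). Against IL6 the OSM level was called higher, by 0.30 on the log2 scale (SE 0.080, adjusted p 0.0218). That call was lost without IL6 replicate 1 (adjusted p 0.112), OSM replicate 1 (0.121) or OSM replicate 2 (0.128).

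Foxo3, the third FOXO factor, was the steadiest of the 3. It stood at 212.1 and 210.5 CPM in control, 199.2 and 218.8 CPM with IL6, 209.3 and 218.6 CPM with LIF and 203.3 and 199.1 CPM with OSM. Its OSM libraries lay below both controls but level with the lower IL6 library, and the interval of the difference between OSM and control was −13.2% to 4.43% (adjusted p 0.466). The remaining family member, Foxo6, was at 22.2 ± 1.35 CPM in control and 19.4 ± 0.624 CPM with OSM (SD, n = 2; adjusted p 0.184).

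Gadd45a fell with OSM, and this was the largest change among the members in that comparison. Its level was 345.1 and 313.0 CPM in control, 315.1 and 327.2 CPM with IL6, 301.4 and 295.6 CPM with LIF and 260.7 and 266.6 CPM with OSM. The OSM libraries lay below all others and the LIF libraries came next, below the overlapping IL6 and control libraries. Against control the log2 change with OSM was −0.32 (SE 0.062, adjusted p 0.0024), a level 19.9% lower with a 95% interval of −27.0% to −12.0%. It was called in 14 of 14 alternatives, with an adjusted p of 0.0481 without control replicate 1, the highest among them. With LIF the log2 change was −0.14 (unadjusted p 0.0413, adjusted p 0.22) and −0.068 without control replicate 1, and with IL6 it was −0.035 (adjusted p 0.974). OSM was also lower than IL6, by −0.28 (SE 0.062, adjusted p 0.00672), a call lost without OSM replicate 1 (adjusted p 0.101) or OSM replicate 2 (0.0577).

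The exons of Gadd45a overlap the antisense gene E230016M11Rik over 19.1% of their bases in M21. That gene had 38 to 85 counts per library, against 7621 to 10057 for Gadd45a. As the strand setting of the counting is not given, reads of the overlap cannot be assigned with certainty. The relatives Gadd45b and Gadd45g, likewise stress-induced, were not called with OSM. Gadd45b averaged 48.6 ± 3.31 CPM in control and 47.1 ± 1.12 CPM with OSM (adjusted p 0.736), and Gadd45g 47.0 ± 3.79 and 49.9 ± 2.60 CPM (adjusted p 0.565; SD, n = 2). The summed proliferation markers (10 of 10 called lower with OSM) and undifferentiated myoblast markers (3 of 5 called higher) moved in the same comparison as Gadd45a and Foxo1, and their part in those values was not tested.

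**Figure D2:**
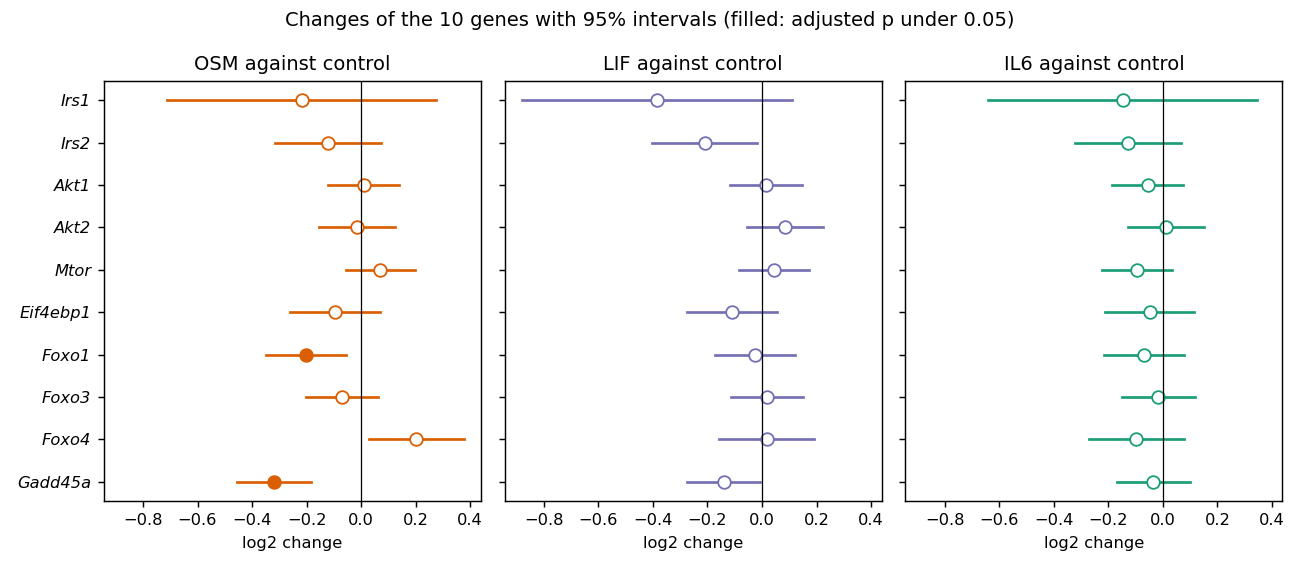
Log2 change of each member against control with OSM, LIF and IL6; lines are 95% intervals and filled points have an adjusted p under 0.05. The filled points are Gadd45a (−0.32) and Foxo1 (−0.20) with OSM, and the intervals of Irs1 are the widest.

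The same question was asked of LIF and IL6. With LIF against control no member was called, where 7.66% of all genes were; the members' changes ran from −0.39 (Irs1) to 0.083 (Akt2) with a median of −0.0052, beside −0.0079 over all genes. An unadjusted p under 0.05 was reached by Irs2 and Gadd45a, 2 of 10 members beside 20.5% of all genes, and 4 members had LIF libraries apart from both controls, beside 52% of all genes. Without control replicate 1 the count of called members was 1, Irs1. With IL6 no member was called either, and edgeR called 0% of all genes. With IL6 the unadjusted p was under 0.05 for 795 genes (5.1%), none of them a member, and DESeq2 called 17 genes, again with no member among them. The IL6 libraries were apart from both controls for 2 members, Mtor and Irs2, beside 28.2% of all genes. The members' IL6 changes ran from −0.15 (Irs1) to 0.013 (Akt2). The 3 comparisons share the 2 control libraries, so a control library that stands apart moves all 3.

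The cytokines were then set against each other. Between OSM and LIF no member was called, where 8.04% of all genes were, although 3 members had an unadjusted p under 0.05, beside 20.7% of all genes, and 6 did not overlap, beside 56.6%. Gadd45a was lower with OSM by −0.18 (adjusted p 0.106), Foxo1 was lower by −0.18 (adjusted p 0.145) and Foxo4 was higher by 0.19 (adjusted p 0.205), all on the log2 scale. These calls depended on which libraries shared the fit. With only the OSM and LIF libraries in the model the adjusted p was 0.00346 for Gadd45a, 0.0202 for Foxo1, 0.0107 for Foxo4 and 0.0342 for Irs1, so 4 members were then called, beside 19.4% of the genes tested in that fit. In the fit of all groups the Foxo1 difference was −0.26 without LIF replicate 1 and −0.093 without LIF replicate 2. Between OSM and IL6, 2 members were called, Foxo4 higher and Gadd45a lower, beside 15.5% of all genes (8.02% higher and 7.52% lower). None was called without OSM replicate 1 or OSM replicate 2, and 1 was called without IL6 replicate 1. Between LIF and IL6 no member was called, beside 2.78% of all genes.

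Levels were compared between genes per kilobase of exon, in control. Exon bases that overlap an opposite-strand gene, as in Gadd45a, Irs1 and Foxo1, were kept in these lengths. Gadd45a was highest at 186.5 ± 12.9 CPM per kb (SD, n = 2), followed by Eif4ebp1 at 82.9 ± 10.2, Akt1 at 70.8 ± 1.35 and Akt2 at 57.1 ± 4.12. The FOXO genes came next, with Foxo3 at 27.9 ± 0.150, Foxo4 at 21.4 ± 1.97 and Foxo1 at 14.4 ± 0.584 CPM per kb. Irs1 at 8.30 ± 2.46 and Mtor at 8.16 ± 0.0439 did not differ beyond their spread, and Irs2 was lowest at 4.28 ± 0.216. When the longest transcript replaced all exons, Akt1 (107.9 CPM per kb) stood above Eif4ebp1 (91.2), so the order of those neighbours depends on the length used. Foxo6, at 8.51 ± 0.515, was the lowest FOXO gene. Gadd45b at 30.6 ± 2.08 and Gadd45g at 40.0 ± 3.23 lay below Gadd45a.

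The genes whose pattern over the 8 libraries was most like that of Gadd45a were then listed. Likeness was the root-mean-square difference in log2 CPM centred on the control mean, over 10869 genes that averaged 100 counts or more; the median difference over these was 0.21. The nearest was Set (0.025), which encodes a histone chaperone and phosphatase inhibitor, followed by the Golgi syntaxin gene Stx16 (0.032), the prefoldin subunit gene Pfdn2 (0.033), the proteasome subunit gene Psmd14 (0.034) and the small nucleolar RNA host gene Snhg8 (0.035). Set averaged 187 ± 14.0 CPM in control, 180 ± 4.43 with IL6, 171 ± 6.04 with LIF and 154 ± 1.21 with OSM (SD, n = 2), the same order of groups as Gadd45a. They were chosen for this likeness, so their levels are a description.

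The pathway around the members was described with 7 lists of known components and targets. The lists share genes, such as Insr (receptors and FOXO targets) and Trib3 (receptors and ATF4 targets), which count in each. With each gene counted once, the lists held 134 tested genes besides the members. Of these 42 (31.3%) were called with OSM against control, 17 higher and 25 lower, where 21.4% of all genes were called. The ATF4 list gave 14 of the 42 from its 16 genes. The other lists ranged from 2 of 16 called (translation factors) to 10 of 22 (receptors). With LIF the count over all lists was 10 (7.46%, beside 7.66% of all genes) and with IL6 it was 0. The median log2 change of the 134 genes with OSM was −0.027, against −0.0029 over all genes.

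**Figure D3:**
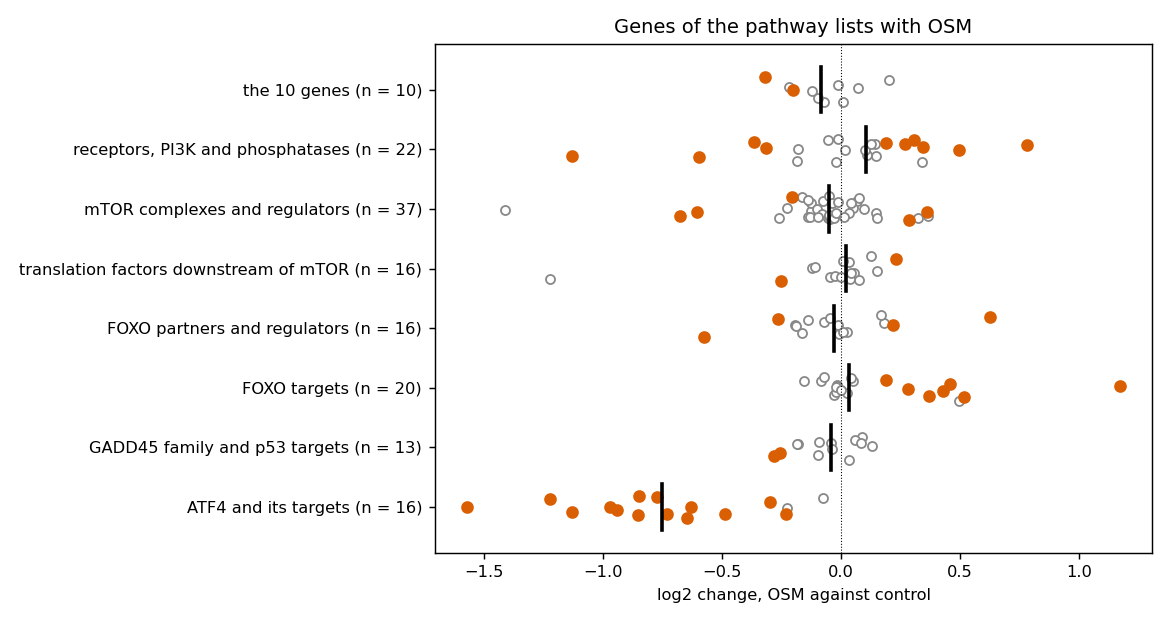
Log2 change with OSM against control for the 10 members (top row) and each gene of the 7 lists; orange points have an adjusted p under 0.05 and black bars are list medians. The median of the ATF4 list is −0.75, and those of the other 6 lists lie between −0.049 and 0.10.

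Among receptors, PI3K subunits and phosphatases, 10 of 22 tested genes were called with OSM, 6 higher and 4 lower, with a median of 0.10; the count was 6 without control replicate 1, OSM replicate 1 or OSM replicate 2. Over all genes 21.4% were called in this comparison, 10.8% higher and 10.6% lower. Trib3, a pseudokinase gene known for an AKT-binding product and as an ATF4 target, fell from 122 ± 20.4 to 55.6 ± 1.37 CPM (SD, n = 2; log2 change −1.13, SE 0.11, adjusted p 4.31e-05). Its relative Trib1 rose from 18.5 ± 3.03 to 31.7 ± 3.28 CPM (0.78, adjusted p 0.000653). Grb10, an adaptor that restrains insulin and insulin-like growth factor receptors, fell with OSM (log2 change −0.60, adjusted p 0.00121) and with LIF (−0.65, adjusted p 0.0024), where 4.2% of all genes were called higher and 3.46% lower. The insulin receptor gene Insr was higher with OSM by 0.19 (adjusted p 0.0438), a call lost by DESeq2 (0.0665) and without control replicate 1 (0.204), LIF replicate 1 (0.0849), LIF replicate 2 (0.0844), OSM replicate 1 (0.126) or OSM replicate 2 (0.22). Igf1r, the receptor gene for insulin-like growth factor 1, was not called (0.11, adjusted p 0.304), and its change was 0.20 without control replicate 1 and 0.031 without control replicate 2.

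Of the 37 genes of the mTOR complexes and their regulators, 5 were called with OSM, 2 higher and 3 lower, and 2 without OSM replicate 1. Over all genes 21.4% were called in the full fit. Slc7a5 and Slc3a2, which encode the paired subunits of a leucine transporter, fell from 510 ± 77.4 to 319 ± 13.1 CPM (SD, n = 2; log2 change −0.68, adjusted p 8.99e-05) and from 318 ± 30.4 to 209 ± 5.97 CPM (−0.60, adjusted p 4.04e-05). Both are also known ATF4 targets. The other 3 were named after their values were seen. Castor2, a gene of the arginine sensor family, was higher (0.36, adjusted p 0.0143). Akt1s1, which encodes an AKT substrate in the mTOR complex, was higher (0.28, adjusted p 0.0209), and Flcn was lower (−0.20, adjusted p 0.0299). Without OSM replicate 1 these 3 gave adjusted p-values of 0.202, 0.244 and 0.187. Castor2 was also lost without control replicate 1 (0.0982) and Akt1s1 without control replicate 2 (0.082). Flcn was lost by DESeq2 (0.0537) and without either control (0.0625 and 0.129), either LIF library (0.0659 for each) or OSM replicate 2 (0.145). Flcn was the gene of this list called with LIF, by −0.49 (adjusted p 0.00037), a call kept in 14 of 14 alternatives, and OSM lay above LIF by 0.29 (adjusted p 0.0108). That last call was lost without LIF replicate 1 (0.168), LIF replicate 2 (0.0864), OSM replicate 1 (0.0963) or OSM replicate 2 (0.0913). The mTOR inhibitor genes Sesn1 (0.035, adjusted p 0.777) and Ddit4 (−0.23, adjusted p 0.0797) were not called. Ddit4 was called with no filter (adjusted p 0.0122), with a replicate block (0.0482) and without control replicate 2 (0.0124), IL6 replicate 1 (0.0379) or IL6 replicate 2 (0.0355), while its change was −0.10 without control replicate 1.

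Among 16 translation factors downstream of mTOR, 2 were called with OSM, where 21.4% of all genes were called. Both are named after their values were seen. The cap-binding factor gene Eif4e was lower by −0.25 (adjusted p 0.00808) and Eif4g3, a scaffold of the same complex, higher by 0.23 (adjusted p 0.0204). Neither was called without control replicate 1 (0.0532 and 0.163) or OSM replicate 1 (0.11 and 0.109), and Eif4g3 was not called without OSM replicate 2 (0.113).

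FOXO partners and regulators gave 4 called of 16 tested with OSM, 2 in each direction, and 1 without OSM replicate 1. The share called over all genes was 21.4% in the full fit. Sgk1, a kinase gene whose product phosphorylates FOXO factors, rose from 16.4 ± 1.40 to 25.4 ± 1.30 CPM (SD, n = 2; log2 change 0.63, adjusted p 0.000326). Skp2, a ubiquitin ligase subunit gene that acts on FOXO1 and on cell cycle inhibitors, fell from 30.4 ± 2.97 to 20.4 ± 2.07 CPM (−0.58, adjusted p 0.00215), a call lost without OSM replicate 1 (0.0532). Proliferation markers fell in the same comparison (10 of 10 called lower), and their part in the Skp2 value was not tested.

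Of 20 tested FOXO target genes, 7 were called with OSM, all higher, where 10.8% of all genes were called higher; the count was 4 without OSM replicate 1. The median over the 20 genes was 0.032, and Insr, described above with the receptors, is among the 7. Fbxo32, the atrogin-1 gene, rose from 55.3 and 62.8 CPM in the control libraries to 137 and 129 CPM with OSM, with the LIF libraries between them at 79.0 and 80.7 CPM. Its log2 change was 1.17 (SE 0.071, adjusted p 1.02e-07) with OSM and 0.44 (adjusted p 0.0024) with LIF, and OSM exceeded LIF by 0.74 (adjusted p 2.56e-05). Ctsl, which encodes the lysosomal protease cathepsin L, rose from 497 ± 8.09 to 712 ± 22.2 CPM (0.52, adjusted p 6.32e-05). Trim63, the MuRF1 gene, stood at 68.0 ± 1.31 CPM in control and 61.1 ± 4.77 CPM with OSM and was not called (−0.15, adjusted p 0.501); its change was −0.071 without OSM replicate 1 and −0.23 without OSM replicate 2. In the same comparison the proliferation markers were called lower in 10 of 10, the myoblast markers higher in 3 of 5, the fibroblast markers higher in 2 of 5 tested, and the myotube markers lower in 5 of 14 and higher in 1. Their part in the FOXO target values was not tested. Over all genes 4.2% were called higher with LIF. With LIF 2 FOXO targets were called, both higher, and the count was 1 without control replicate 1, either LIF library or either OSM library and 4 without control replicate 2 or either IL6 library.

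Among 13 genes of the GADD45 family and p53 response, 2 were called with OSM, both lower. Over all genes 21.4% were called, 10.8% higher and 10.6% lower. Both list genes are named after their values were seen. These were the p53 gene Trp53 (−0.26, adjusted p 0.0226) and its target Aen (−0.28, adjusted p 0.0049). Neither was called without OSM replicate 1 (0.181 and 0.0612) or OSM replicate 2 (0.0868 and 0.0501), and Trp53 was not called without control replicate 2 (0.108) or by DESeq2 (0.0636). No gene of the list was called with LIF.

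ATF4 and its targets gave the most one-sided list. With OSM 14 of 16 were called, all lower, where 10.6% of all genes were called lower, and the median log2 change was −0.75. The count was 11 to 15 when 1 library was left out and 13 by DESeq2. Asns, the asparagine synthetase gene, fell from 405 ± 44.0 CPM in control to 310 ± 15.7 with LIF and 224 ± 2.32 with OSM (SD, n = 2). On the log2 scale this was −0.86 with OSM (SE 0.073, adjusted p 1.96e-06) and −0.39 with LIF (adjusted p 0.00538; 0.116 without LIF replicate 2). Mthfd2, a mitochondrial folate enzyme gene, fell from 197 ± 33.6 to 103 ± 2.12 CPM with OSM (−0.94, adjusted p 1.28e-05), and the serine synthesis gene Psat1 from 417 ± 43.8 to 266 ± 3.96 CPM (−0.65, adjusted p 2.56e-05). The hormone gene Fgf21 fell from 96.3 ± 3.14 to 57.9 ± 1.63 CPM (−0.73, adjusted p 4.12e-06), and Atf5, a related transcription factor gene, from 112 ± 15.5 to 72.4 ± 0.475 CPM (−0.63, adjusted p 0.000117).

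Atf4 itself stood at 472 and 401 CPM in control and 349 and 361 CPM with OSM. Its log2 change was −0.30 (SE 0.080, adjusted p 0.0171), and the call was lost without control replicate 1 (−0.18, adjusted p 0.148), OSM replicate 1 (−0.27, 0.155) or OSM replicate 2 (−0.32, 0.0839). The 2 list genes not called with OSM were Ddit4 and, named after its value was seen, Sesn2 (−0.077, adjusted p 0.549). With LIF 5 of the 16 were called, all lower, where 3.46% of all genes were called lower, with a median of −0.25; the count ranged from 0 without LIF replicate 2 to 8 without control replicate 2, with 1 without LIF replicate 1 and 2 without control replicate 1 or either OSM library, and it was 10 with no filter on low counts. OSM was lower than LIF for 10 of the 16, beside 4.04% of all genes, and the count was 5 without LIF replicate 1 or OSM replicate 1, 6 without OSM replicate 2 and 16 with only those 2 groups in the fit, where 19.4% of all genes were called. With IL6 none was called and the median was −0.081; without IL6 replicate 2 the count was 1. The summed proliferation markers were lower in the same groups, at 681 to 731 CPM with LIF and 303.7 to 349.5 CPM with OSM against 909.8 to 1054.8 CPM in control, and their part in these values was not tested.

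**Figure D4:**
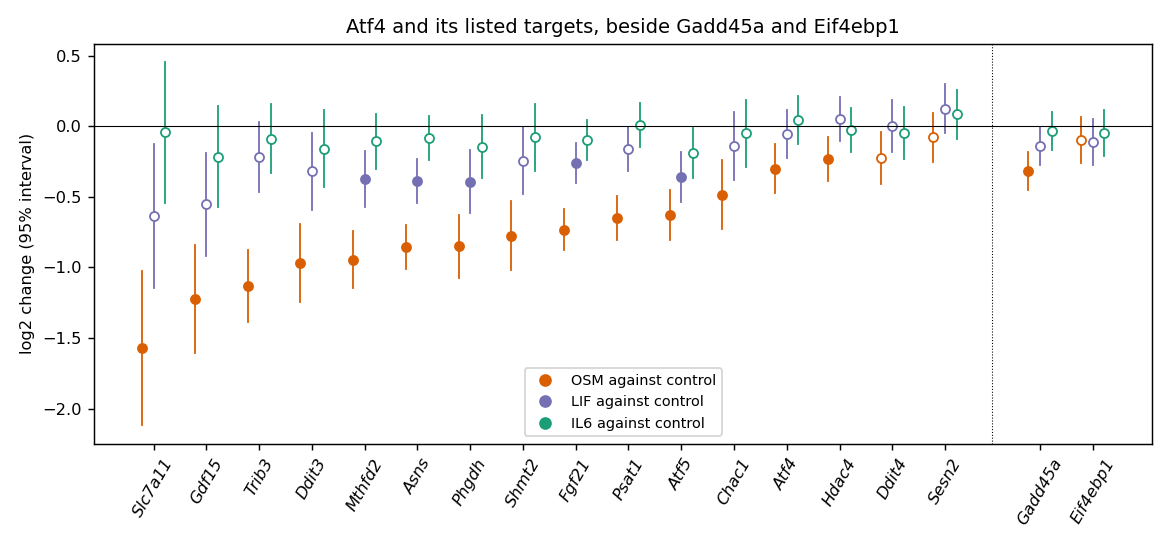
Log2 change against control with OSM, LIF and IL6 for the 16 genes of the ATF4 list and for the members Gadd45a and Eif4ebp1. With OSM 14 of the 16 list genes are called lower, and the IL6 points lie nearest to 0 on the whole, with a median of −0.081.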

How the data were processed

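RNA was measured in 8 libraries of mouse primary myotubes made with a stranded mRNA kit, per the labels' protocols. Each deposited file holds the raw read counts of 1 library by gene, neither normalised nor pooled. The submitters' processing notes name FastQC 0.11.9, MultiQC 1.12, Trim Galore 0.6.5, STAR 2.7.3a, HTSeq 0.11.1 and DESeq2 1.34.0, with builds GRCm39 and mm39; the annotation release and HTSeq's strand setting are not given in the sources used here. The 5 summary lines of each file (11.7% to 12.7% of the total) were left out of library sizes and tests. Of 53647 identifiers, 52093 were named from GENCODE M21 (99.8% of counts).

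Counts were tested with edgeR 4.0.16 in R 4.3.3: filterByExpr at a minimum count of 10, TMM scaling (factors 0.986 to 1.025), a robust quasi-likelihood fit of 4 groups to all 8 libraries (4 residual degrees of freedom, common biological coefficient of variation 6.42%) and 6 contrasts. P-values were adjusted by Benjamini and Hochberg over all 15603 genes, separately for each contrast; called means an adjusted p under 0.05. Replicates correlated at 0.992 to 0.995 (Pearson, log2 CPM) and differed by more than counting error, with a chi-square per gene of 3.04 to 12.3. An interval for a change is the 95% interval of the fit. Sequence in common with other genes was counted, for the members only, as 50-base stretches of the transcript that another M21 gene also holds. Alternatives were RLE scaling, no filter, DESeq2 1.42.0, only the groups compared, a replicate block, each library left out and, added after seeing the data, TMM factors from all genes before the filter.

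Members and lists were chosen with earlier results of these data known. All members are named. List genes are named where the adjusted p was under 0.05 and the log2 change with OSM at least 0.5 in size, at most the 6 of lowest adjusted p a list, together with Fbxo32, Trim63, Foxo6, Eif4ebp2, Eif4ebp3, Gadd45b, Gadd45g, Sesn1, Ddit4, Atf4, Insr and Igf1r whatever their values. A gene that the naming rule and a list would have held is not reported here. For likeness, Gadd45a was used as the member with the lowest adjusted p for OSM against control.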

Additional observations from a re-analysis of the deposited data

How the results depend on the processing

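For single members, 44 results were recomputed under 14 alternatives each. They covered all members in the comparisons with control and in OSM against LIF. OSM against IL6 was included only for Foxo4, Gadd45a and Mtor, and LIF against IL6 only for Mtor. Of the 44 results, 24 kept their direction throughout and 15 kept both direction and call. The count of members called with OSM against control was 1 under RLE scaling, by DESeq2 and with TMM factors taken before the filter (added after seeing the data), and 1 to 3 with 1 library left out. Leaving out 1 library gave 0 to 1 members called for LIF against control and 0 to 2 for OSM against IL6. A group left with 1 library was assumed to vary like the others. With only the groups compared, OSM against LIF gave 2928 genes and 4 members called. IL6 against control gave 97 genes with no filter and 17 by DESeq2, and LIF against IL6 gave 985 genes with no filter. With 1 library left out, genes called ran from 1622 (without OSM replicate 1; 1865 without OSM replicate 2) to 4067 for OSM against control, from 316 (without LIF replicate 2; 443 without LIF replicate 1) to 1688 for LIF against control, from 0 to 221 (without IL6 replicate 2) for IL6 against control, from 437 to 1764 for OSM against LIF, from 1105 to 2713 for OSM against IL6 and from 82 to 739 for LIF against IL6. The cause of these shifts was not tested; fewer libraries leave fewer residual degrees of freedom. The median log2 change of all genes with OSM stayed between −0.0030 and 0.0036 in each setting.

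Replicate numbers are in the labels, but the correlation of same-numbered deviations was 0.18 for control with IL6, 0.10 for control with LIF, 0.074 for control with OSM, 0.054 for IL6 with OSM, 0.013 for IL6 with LIF and 0.0071 for LIF with OSM, so the numbers were not taken as pairs. For Foxo1, Foxo4 and Irs1, replicate 2 lay above replicate 1 in each group, while for the other members the order differed between groups. A shared source of same-numbered libraries was not tested. With the replicate block, genes called were 3966 for OSM, 1670 for LIF and 9 for IL6 against control, 1760 for OSM against LIF, 3000 for OSM against IL6 and 826 for LIF against IL6. The fit without the block called 3335, 1195 and 0 genes for OSM, LIF and IL6 against control. It called 1255 for OSM against LIF, 2426 for OSM against IL6 and 434 for LIF against IL6. Members called with the block were 3 for OSM against control (Foxo4 joined, adjusted p 0.0284), 2 for OSM against IL6 and 0 otherwise.

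Leaving out 1 library reversed the sign of uncalled differences, and the cause was not tested. Against control with OSM, log2 ranges over the left-out libraries were −0.010 to 0.037 for Akt1, −0.086 to 0.070 for Akt2, −0.21 to 0.035 for Eif4ebp1, −0.49 to 0.13 for Irs1, −0.10 to 0.027 for Gadd45b, −0.027 to 0.11 for Sesn1 and −0.15 to 0.0085 for Sesn2. With LIF they were −0.015 to 0.045 for Akt1, −0.22 to 0.021 for Eif4ebp1, −0.11 to 0.054 for Foxo1, −0.013 to 0.049 for Foxo3 and −0.074 to 0.12 for Foxo4. With IL6 they were −0.12 to 0.0021 for Akt1, −0.060 to 0.090 for Akt2, −0.17 to 0.082 for Eif4ebp1, −0.086 to 0.050 for Foxo3, −0.21 to 0.0031 for Foxo4, −0.10 to 0.037 for Gadd45a and −0.42 to 0.19 for Irs1. For OSM against LIF they were −0.035 to 0.025 for Akt1, −0.035 to 0.069 for Eif4ebp1, −0.017 to 0.20 for Irs2 and −0.0022 to 0.059 for Mtor. With 642 to 834 counts, Irs2 is the member whose precision depth limits most.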
